A study of Oryza sativa Japonica Group with 6 samples.

Results

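The genes described here are the cyclins, cyclin-dependent kinases, kinesins and DNA replication genes expressed in rice leaves. They were chosen by annotation text: cyclin (without the cyclin-like F-box entries), kinesin, cyclin-dependent, minichromosome maintenance or MCM, replication factor, proliferating cell nuclear antigen, or DNA polymerase. A read minimum was added, 10 or more reads in at least 3 of the 6 libraries. The rule gave 139 genes of the 37863 in the deposited table. All 139 passed the filter on low values of the test.

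By annotation the 139 comprised 13 A- and B-type cyclins, 10 D-type cyclins, 25 other cyclins and 37 kinesins. There were 16 entries for cyclin-dependent kinases (CDKs), their inhibitors and a CDK regulatory subunit (Os03g0146300), here called CDKs and inhibitors. Replication had 8 MCM proteins, 7 clamp, clamp loader and other replication factors, and 19 DNA polymerases. The remaining 4 are reverse transcriptase entries of mobile elements, which match the words DNA polymerase and have no known part in replicating the genome. A further 16 genes matched the text and missed the read minimum, 10 of them listed at 0 reads in every library, among them 6 entries for F-type cyclins and cyclin D7. Just outside the minimum, the cyclin A2 gene Os03g0208700 had 91 reads in all, with 10 or more in 2 libraries. Just inside it, the cyclin Os03g0208800 had 22, 0 and 0 reads in WT and 18, 28 and 0 in the transgenic line.

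Cyclins bind CDKs and set the times at which those kinases act: D-type cyclins before DNA replication, A-type cyclins during replication and B-type cyclins at mitosis. Before replication the MCM helicase is loaded on the DNA, and the clamp PCNA, placed by the loader replication factor C, then holds the replicative polymerases on the template. Kinesins are motors that walk on microtubules. Some build the spindle and the phragmoplast, the structure that lays down the new cell wall, and others carry cargo or order microtubules in cells that no longer divide. In a grass leaf, division takes place at the base, and the blade above it consists of cells that have stopped dividing. In these bulk samples fewer dividing cells and less RNA per cell cannot be told apart.

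The libraries were made from polyA RNA of leaves of 14-day-old seedlings of the japonica group, kept on MS medium at 28 °C with 16 h of light and 8 h of dark. There were 3 libraries of the wild type (WT) and 3 of OsWRKY65-2, a transgenic line that overexpresses OsWRKY65, a transcription factor of the WRKY family. Both genotypes were otherwise raised alike, and no treatment was applied. The promoter of the transgene and the number of plants in a library are not given in the labels, and the line is a single one. The labels do not say whether the replicates were separate plants, and the p-values therefore cover the scatter among libraries alone, part of which may be technical.

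Total counts ran from 20585288 to 29720852 per library. OsWRKY65-2 replicate 3 stood apart: reads were found for 20893 genes in it against 24091 to 27129 in the other 5, and its log2 CPM correlated with theirs across genes at r = 0.603 to 0.695, against 0.856 to 0.926 among the 5. CPM are counts scaled to a library of 1000000, with TMM factors. The gene taken as OsWRKY65, Os12g0116800, was at 4.16, 0 and 0 CPM in WT and at 69.5, 42.3 and 1040.0 CPM in OsWRKY65-2, so the library that stands apart also had its highest level. Leaf markers (chlorophyll-binding and Rubisco small subunit entries, 14 genes) summed to 13260 to 19710 TPM (the deposited transcript level, scaled to length and depth) in WT and 21610 to 23540 in the line. Fold changes that describe a difference between the genotypes are therefore given with and without OsWRKY65-2 replicate 3, beside the value in every library. Values of a gene are listed below in the order WT replicates 1, 2 and 3, then OsWRKY65-2 replicates 1, 2 and 3.

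With all 6 libraries, no cyclin, CDK, kinesin or replication gene passed the test for a difference between the genotypes. The OsWRKY65-2 libraries went in opposite directions. The mean of replicates 1 and 2 was above that of WT for most of the 139 genes, with a median ratio of 1.24, and the median ratio was highest for MCM genes, at 1.89. In replicate 3, 6 of the 8 MCM genes (75.0%), 14 of the 37 kinesins (37.8%) and 9 of the 19 DNA polymerase entries (47.4%) were listed at 0 reads. The share of all genes tested at 0 there was 17.9%.

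edgeR's quasi-likelihood test, with p-values adjusted over all 23769 genes tested by the Benjamini-Hochberg method, called 0 of the 139 higher and 0 lower, and called 0 genes of the whole table. The smallest adjusted p among the 139 was 0.763. Unadjusted, 2 of them were higher and 2 lower at p under 0.05 (1.44% each), against 4.25% and 2.26% of all genes tested. DESeq2 also called 0 of the 139, with 0.693% and 0.402% of all genes called higher and lower. Their median log2 fold change (OsWRKY65-2 over WT) was 0.035, beside -0.009 over all genes. The sign of that median is not firm: in the same fit it was -0.004 without the 4 reverse transcriptase entries. It also differed by scale, at -0.71 with limma-voom and -0.61 on log2(TPM + 1). On these scales low values weigh more than in edgeR's ratio of means, but the cause of the shift was not tested. The line's libraries were all above those of WT for 4 of the 139 (2.88%, against 7.16% of all genes) and below for 12 (8.63%, against 10.5%).

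Without OsWRKY65-2 replicate 3 the median log2 fold change was 0.305, beside 0.021 over all genes, and 94 of the 139 were positive (67.6%, against 51.7% of all genes). edgeR again called 0 of the 139 (smallest adjusted p = 0.148), while over all genes it called 0.0527% higher and 0.0243% lower. Unadjusted, 32 members (23.0%) were higher and 4 (2.88%) lower, against 5.18% and 5.41% of all genes. The 32 had ratios of the mean of OsWRKY65-2 replicates 1 and 2 to the WT mean from 1.38 to 2.79, with a median of 1.83. Genotypes did not overlap for 44 genes above WT (31.7%, against 14.5%) and for 13 below (9.35%, against 13.9%). DESeq2 called 6 higher and 1 lower, against 1.06% and 1.69% of all genes.

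By role, the number of genes above and below every WT library in both remaining line libraries was 13 and 2 of 37 kinesins, 6 and 0 of 8 MCM genes, 3 and 0 of 7 clamp, loader and replication factors, and 4 and 3 of 19 polymerases. It was 5 and 2 of 13 A- and B-type cyclins, 1 and 1 of 10 D-type cyclins, 7 and 3 of 25 other cyclins, 5 and 2 of 16 CDKs and inhibitors, and 0 and 0 of the 4 reverse transcriptase entries. Of all genes tested, 14.5% lay above and 13.9% below. The counts below WT of the cyclins, CDKs and polymerases, and the count above of D-type cyclins, are near those shares. The median log2 fold changes without replicate 3 were 0.90 for MCM genes and 0.45 for A- and B-type cyclins, and lay between 0.14 and 0.31 for the other roles. The reverse transcriptase entries, for which no part in division is known, had a median of 0.22 there, and 1 of 4 was at 0 in replicate 3.

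The count of 32 rests largely on OsWRKY65-2 replicate 2. This library was above replicate 1 in 28 of the 32 genes, and was the highest of the 5 libraries for 44.6% of the 139, against 19.9% of all genes. When it was left out as well, 6 members were higher and 15 lower at an unadjusted p under 0.05 (edgeR), against 5.31% and 8.81% of all genes, and when replicate 1 was left out instead, 37 and 4, against 3.68% and 4.28%. In both fits the line is a single library, assumed to vary like WT. Leaving out WT replicates 1, 2 or 3 gave 14, 34 and 18 higher, against 3.62%, 4.96% and 4.94%, with 3, 4 and 3 lower, against 3.38%, 4.48% and 4.89%. WT replicate 2 was the highest WT library for 28 of the 32, and for 51.8% of the 139 against 36.7% of all genes.

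**Figure D1:**
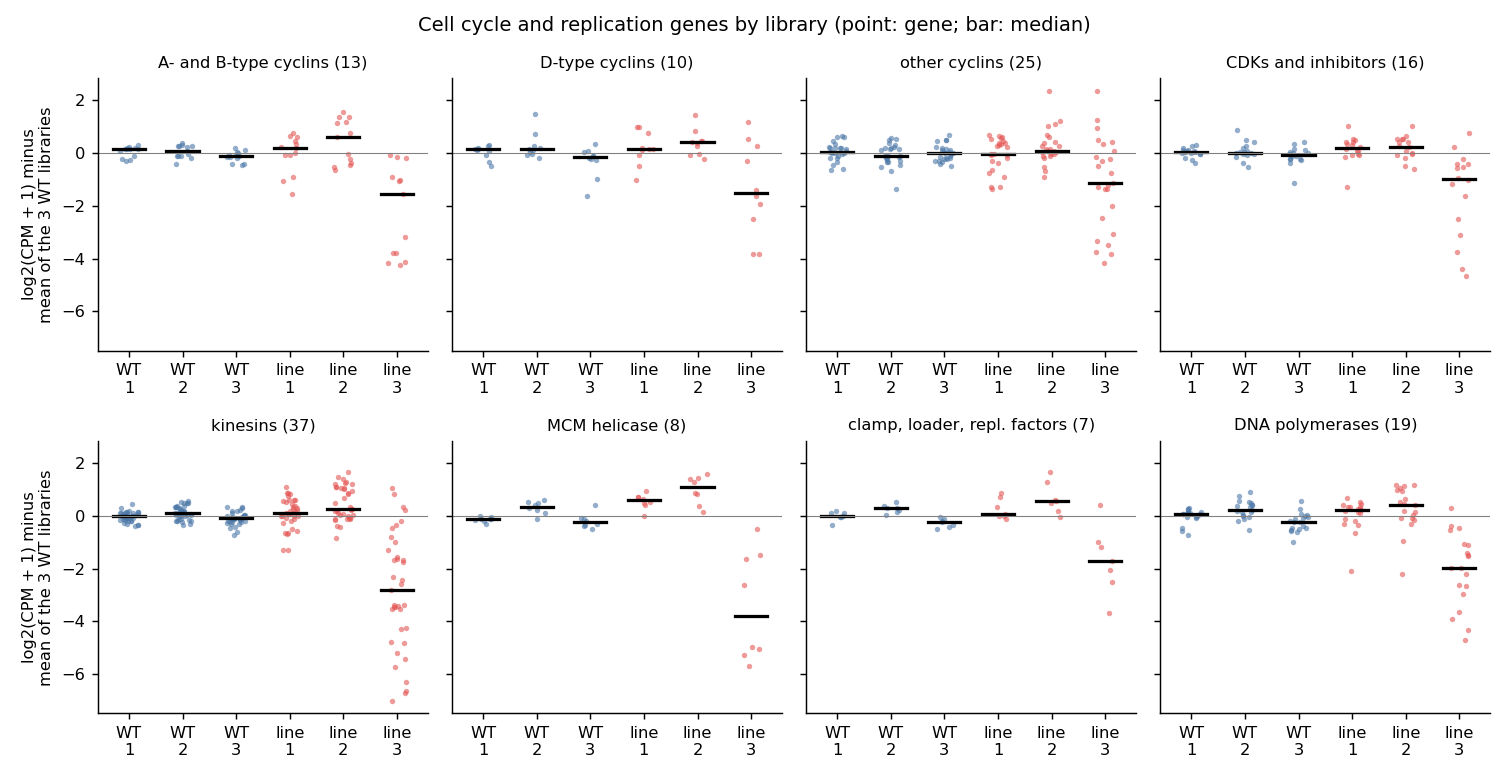
Each point is 1 gene in 1 library, as log2(CPM + 1) minus the mean of the 3 WT libraries (vertical axis), in panels by role with the number of genes in parentheses; blue is WT, red is OsWRKY65-2 (line), and black bars are medians. The MCM panel has medians of 0.59 and 1.08 in OsWRKY65-2 replicates 1 and 2 and of -3.80 in replicate 3.

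OsWRKY65-2 replicate 3 listed 55 of the 139 genes at 0 reads (39.6%, against 17.9% of all genes tested), while the other libraries listed 0 to 5 of them at 0. Counting error allows up to 0.160 CPM for a gene at 0 in that library (3 counts). The 55 were not only weak genes: 16 had a median above 20 CPM in the other 5 libraries, and the highest such median was 140.3 CPM. Among genes with at least 100 reads on average in WT, 33.1% of the members and 10.2% of all genes were at 0 there. Replicate 3 was below every other library for 102 members (73.4%, against 42.3%) and above every other for 12 (8.63%, against 27.6%). In it 78 members were under 0.25 times the WT mean (56.1%, against 25.1% of all genes). Between 0.5 and 2 times that mean were 38, a range for which the share of all genes was not taken.

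**Figure D2:**
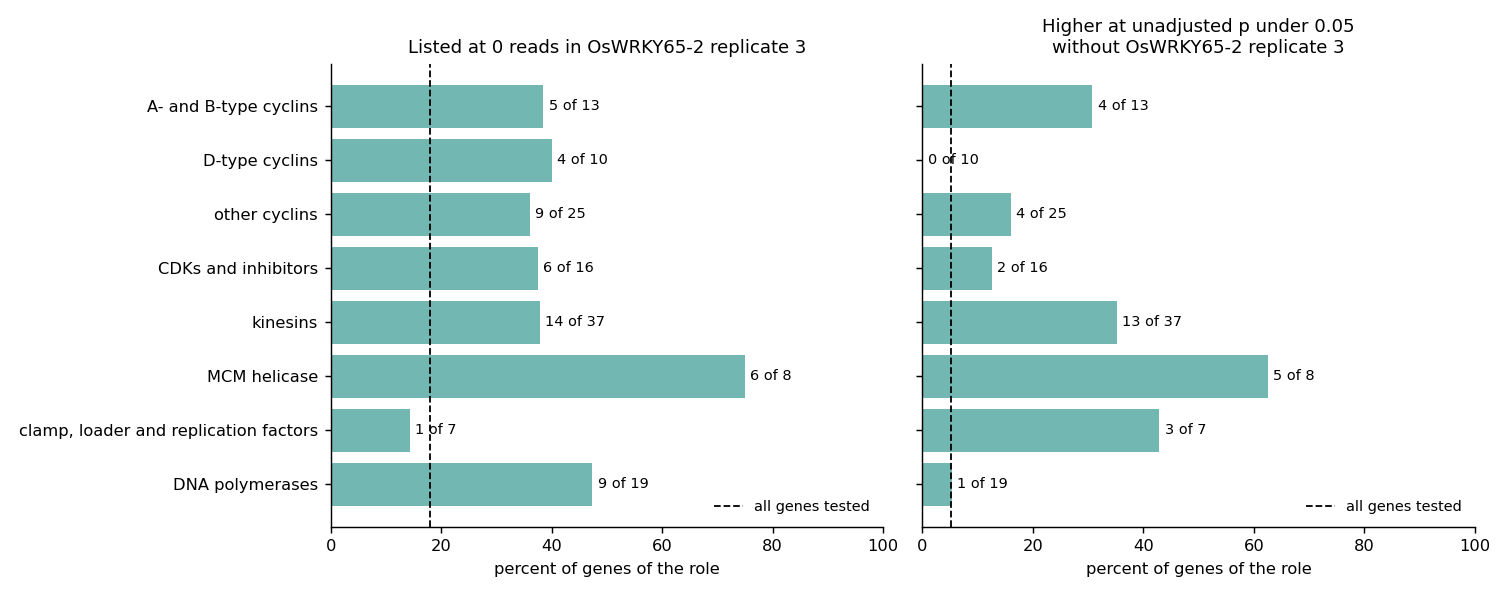
Bars give the percent of genes of each role listed at 0 reads in OsWRKY65-2 replicate 3 (left) and at an unadjusted edgeR p under 0.05 and higher in OsWRKY65-2 without that library (right), with counts beside them; dashed lines are the shares over all genes tested, 17.9% and 5.18%. The MCM bars are the longest in both panels, with 6 of 8 and 5 of 8 genes.

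The MCM proteins showed the widest swing between libraries of any role. Their median log2(CPM + 1) relative to the WT mean was 0.59 and 1.08 in OsWRKY65-2 replicates 1 and 2 and -3.80 in replicate 3. In that library 6 of 8 were listed at 0 (75.0%, against 17.9% of all genes) and all 8 were at their lowest (100%, against 42.3%). Without replicate 3 all 8 had positive log2 fold changes (100%, against 51.7% of all genes). In that fit 5 had an unadjusted p under 0.05 (62.5%, against 5.18% of all genes higher).

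MCM2 (Os11g0484300), a subunit of the helicase ring by its annotation, was at 69.1, 100.3 and 60.9 CPM in WT, against 106, 137 and 11.3 CPM in the line. Replicates 1 and 2 of the line were above all WT libraries and replicate 3 was below all of them. The log2 fold change was 0.14 ± 0.80 (SE) with 6 libraries and 0.66 ± 0.25 without replicate 3 (adjusted p = 0.420, edgeR).

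MCM3 (Os05g0476200), another ring subunit, was at 49.2, 60.3 and 44.6 CPM in WT, against 74.4, 127 and 0 CPM in the line. Its log2 fold change was 0.39 ± 1.65 with 6 libraries (adjusted p = 0.972, edgeR) and 0.97 ± 0.26 without replicate 3, with an adjusted p of 0.273 in edgeR and 0.0495 in DESeq2. An MCM family gene without a numbered subunit in its annotation, Os02g0797400, was at 27.4, 43.2 and 23.8 CPM and at 59.9, 84.9 and 0 CPM. Both genes had the same layout as MCM2, with the last library empty. The MCM4 gene Os01g0544450, chosen after its values were seen, was at 36.9, 40.0 and 34.9 CPM and at 61.1, 98.7 and 0 CPM, with a log2 fold change of 0.52 ± 1.62 with 6 libraries and 1.10 ± 0.23 without replicate 3, where the adjusted p was 0.199 in edgeR and 0.00665 in DESeq2. Os05g0235800, annotated with an MCM ATPase domain and chosen likewise, was at 29.5, 46.1 and 24.2 CPM and at 50.7, 99.3 and 0 CPM. A second MCM3 entry, Os05g0173700, was at 7.49, 8.52 and 12.8 CPM in WT, against 9.23, 10.4 and 6.42 CPM in the line, with replicate 3 again lowest, at 0.668 times the WT mean.

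Of the 7 entries for PCNA and the replication factors, replicate 3 was under 0.25 times the WT mean for 4, between 0.25 and 0.5 times for 2, and between 0.5 and 2 times for 1, replication factor C subunit 3. Of these 7 genes, 3 were higher at an unadjusted p under 0.05 without replicate 3 (42.9%, against 5.18% of all genes). In replicate 3, 1 was listed at 0 (14.3%, against 17.9%).

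PCNA (Os02g0805200), the sliding clamp, had the highest mean level of all 139 genes per transcript length, 88.3 TPM over the 6 libraries. It was at 37.8, 64.5 and 48.0 CPM in WT and at 91.2, 156 and 10.96 CPM in OsWRKY65-2. Replicates 1 and 2 of the line were on average 2.47 times the WT mean and replicate 3 was below every WT library. The log2 fold change was 0.78 ± 0.83 with all libraries (adjusted p = 0.880, edgeR) and 1.30 ± 0.30 without replicate 3, where the adjusted p was 0.224 in edgeR and 0.00888 in DESeq2.

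Replication factor C subunit 3 (Os02g0775200), part of the complex that opens the clamp, was at 14.8, 17.5 and 12.9 CPM in WT, against 25.3, 22.6 and 20.1 CPM in the line. All 3 line libraries lay above all WT libraries, by 0.59 ± 0.25 on the log2 scale (edgeR's adjusted p = 0.763) and by 0.67 ± 0.24 without replicate 3 (0.396). The large subunit of the same complex (Os11g0572100, annotated as 110 kDa) overlapped between the genotypes, at 81.9, 77.2 and 69.5 CPM and at 75.9, 74.4 and 37.3 CPM. The CDT1-like gene Os04g0185100, whose protein helps load the helicase, was at 12.9, 14.9 and 8.69 CPM in WT, against 15.3, 30.2 and 0 CPM in the line.

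The 19 DNA polymerase entries include 9 annotated as subunits of replicative polymerases and 3 as PolI-like polymerases. The annotations of the others name neither kind, and some of them name no class at all. The 9 subunits of the replicative polymerases alpha, delta and epsilon had positive log2 fold changes in all 9 cases without replicate 3 (median 0.61), against 51.7% of all genes. At an unadjusted p under 0.05 there was 1 of them (11.1%, against 5.18% of all genes higher), and 6 were listed at 0 in replicate 3 (66.7%, against 17.9%). The 3 PolI-like polymerases, which in rice copy the DNA of chloroplasts, had negative log2 fold changes in both fits (medians -0.50 and -0.11), and none was at 0 in any library. Even so, all 3 were at their lowest in replicate 3, at 0.243, 0.226 and 0.354 times the WT mean. So were 7 of the 9 replicative subunits (77.8%), against 42.3% of all genes. The difference between the kinds was not tested.

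Among these, the catalytic subunit of polymerase alpha (Os01g0868300), which starts new strands, was at 40.8, 62.4 and 28.9 CPM in WT, against 50.5, 84.2 and 0.642 CPM in the line. The PolI-like gene Os04g0637400 was at 64.6, 56.1 and 64.2 CPM in WT, against 48.0, 48.9 and 15.0 CPM in the line, below WT in 3 of 3 libraries (log2 fold change -0.72 ± 0.45, adjusted p = 0.791, edgeR), and without replicate 3 the fold change was -0.35 ± 0.18 (edgeR's adjusted p = 0.538). The alpha subunit genotypes overlapped and the PolI-like genotypes did not. Polymerase delta subunit 4 (Os09g0520100) was nearly level across libraries, at 17.0, 16.6 and 17.6 CPM and at 21.6, 16.1 and 21.2 CPM. A gene with a domain of the bacterial polymerase III subunits gamma and tau, Os01g0730900, was at 15.5, 14.6 and 13.4 CPM in WT, against 8.76, 12.8 and 6.36 CPM in the line, below WT in each library, by -0.63 ± 0.35 on the log2 scale and by -0.42 ± 0.28 without replicate 3 (edgeR's adjusted p = 0.772 and 0.638). Pairs of polymerase entries with adjoining identifiers and one annotation (Os02g0511900 with Os02g0511901, and Os07g0209401 with Os07g0209500) may share reads, so their values are uncertain.

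**Figure D3:**
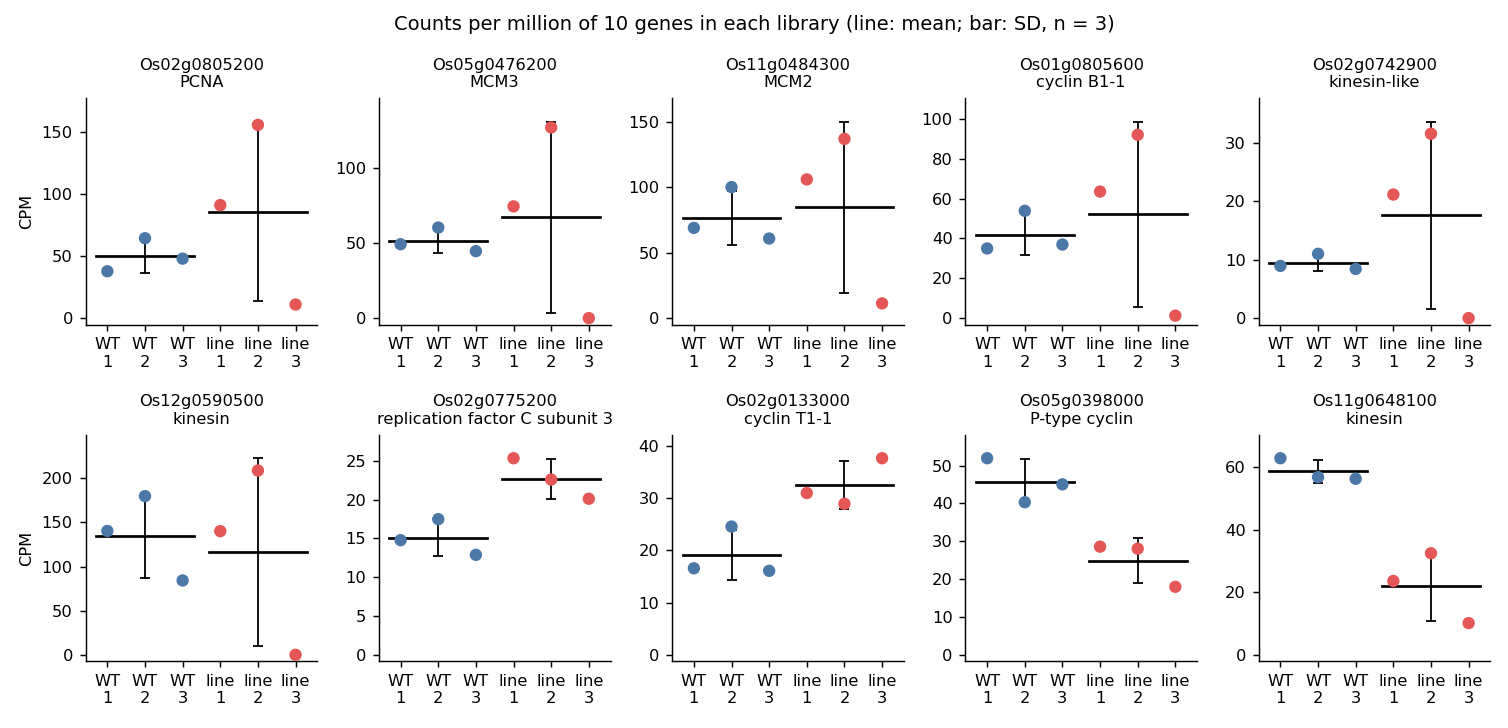
CPM (vertical axes, starting at 0) of 10 genes in WT (blue) and OsWRKY65-2 (line, red) replicates 1 to 3, with the mean and SD of each genotype (n = 3). In the upper row OsWRKY65-2 replicate 3 is the lowest library of each gene, while replication factor C subunit 3 and cyclin T1-1 are above WT in all 3 line libraries, and the P-type cyclin and the kinesin Os11g0648100 are below WT in all 3.

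Of the 13 A- and B-type cyclins, 4 were higher at an unadjusted p under 0.05 without replicate 3 (30.8%, against 5.18% of all genes). In replicate 3, 5 were listed at 0 (38.5%, against 17.9%).

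Cyclin B1-1 (Os01g0805600), which with its kinase drives entry into mitosis, was at 35.0, 53.9 and 37.0 CPM in WT, against 63.6, 92.1 and 1.23 CPM in the line. A B1-5 entry, Os05g0493500, was at 26.9, 39.2 and 32.3 CPM in WT, against 44.5, 85.7 and 1.44 CPM in the line. In both, replicates 1 and 2 of the line exceeded every WT library and replicate 3 was close to empty. Without replicate 3 the log2 fold changes were 0.89 ± 0.26 and 0.99 ± 0.30 (adjusted p = 0.301 and 0.319, edgeR), and with it 0.32 ± 1.17 and 0.42 ± 1.11 (0.966 and 0.953).

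A different layout was found in Os02g0800500, annotated as cyclin B1-2 and the most abundant B-type cyclin per length (41.9 TPM), which was at 119, 98.3 and 103 CPM in WT, against 100.3, 77.2 and 94.8 CPM in the line. The genotypes overlapped, and replicate 3 of the line was just under the lowest WT library. Its neighbours by identifier, Os02g0801200 and Os02g0801300, carry B-type cyclin annotations too and had the same flat layout. Whether reads were shared among these 3 entries cannot be told from the table. A pair of weak genes, Os05g0501350 and Os02g0627800, were lower in the line in each library, but none of their values exceeded 2.60 CPM.

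D-type cyclins, which respond to growth signals before replication, had no member of 10 higher at an unadjusted p under 0.05 without replicate 3. Of all genes 5.18% were. The cyclin D gene Os03g0203800 was at 17.0, 26.6 and 31.3 CPM in WT, against 49.6, 32.3 and 55.9 CPM in the line. Replicate 3 was its highest library and all line libraries were above WT (log2 fold change 0.88 ± 0.33, adjusted p = 0.763, edgeR), and without replicate 3 the fold change was 0.71 ± 0.31 (edgeR's adjusted p = 0.473). Cyclin D3-1 (Os06g0217900) had the opposite layout, at 21.9, 19.98 and 16.8 CPM in WT, against 9.23, 16.5 and 2.67 CPM in the line. The delta-3 gene Os03g0109700, with the highest level of the 10 per length, overlapped between the genotypes at 18.4, 28.4 and 24.9 CPM and at 26.4, 33.0 and 19.0 CPM.

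The 25 other cyclins include 2 groups not tied to a cell cycle phase. P-type cyclins are related to the yeast cyclin PHO80, which takes part in the response to phosphate, and H-, T- and Ania-6a-type cyclins act with kinases on RNA polymerase II. The 6 P-type cyclins had a median log2 fold change of -0.95 with all libraries and -0.56 without replicate 3. In the latter fit 2 were lower at an unadjusted p under 0.05 (33.3%, against 5.41% of all genes). The 5 H-, T- and Ania-6a-type cyclins had medians of 0.21 and 0.16, and none was at 0 in any library.

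The P-type cyclin Os05g0398000 was at 52.0, 40.3 and 45.0 CPM in WT, against 28.6, 28.0 and 17.97 CPM in the line. Each line library was below each WT library, by -0.88 ± 0.26 on the log2 scale (edgeR's adjusted p = 0.763) and by -0.69 ± 0.20 without replicate 3 (0.301). Its relative Os02g0125400, chosen after its values were seen, was at 16.4, 10.7 and 15.2 CPM and at 5.09, 6.99 and 0.481 CPM, with the same order of genotypes. Not all of the group lay this way: Cyclin-P1-1 (Os04g0628900) was at 5.04, 2.35 and 6.62 CPM in WT, against 7.29, 4.71 and 26.6 CPM in the line, with its highest value in replicate 3.

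Cyclin T1-1 (Os02g0133000) was at 16.6, 24.6 and 16.1 CPM in WT, against 31.0, 28.9 and 37.6 CPM in the line. All 3 line libraries exceeded WT (log2 fold change 0.77 ± 0.26, and 0.65 ± 0.26 without replicate 3; edgeR's adjusted p = 0.763 and 0.436). The most abundant of the other cyclins per length, Os09g0504400 (85.7 TPM), was flat at 75.7, 80.5 and 67.7 CPM and at 70.6, 68.8 and 66.8 CPM.

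CDKs are the kinases that cyclins switch on, and CDK inhibitors hold them back. Of the 16 entries, the regulatory subunit included, 2 were higher (12.5%) and 1 lower (6.25%) at an unadjusted p under 0.05 without replicate 3. The shares over all genes were 5.18% and 5.41%. The share that was lower is near that of all genes. The CDKC-2 gene Os01g0958000, whose kinase pairs with T-type cyclins in Arabidopsis, was at 64.5, 61.1 and 63.2 CPM in WT, against 62.1, 75.8 and 46.7 CPM in the line. The CDK-like gene Os01g0367700 was at 73.5, 69.3 and 72.5 CPM and at 75.2, 76.2 and 36.6 CPM, with its lowest value in replicate 3. CDKA-1, the kinase used through the whole cycle, has 2 entries. The more abundant per length, Os03g0118400 (40.2 TPM), was at 26.3, 27.2 and 27.9 CPM in WT, against 38.5, 36.2 and 18.02 CPM in the line. It was above WT in replicates 1 and 2 and below WT in replicate 3, with a log2 fold change of 0.19 ± 0.32 with 6 libraries and 0.46 ± 0.19 without replicate 3 (edgeR's adjusted p = 0.924 and 0.451). The other entry, Os03g0108800 (11.5 TPM), was at 12.01, 10.8 and 9.87 CPM and at 12.1, 16.1 and 12.9 CPM, above WT in each line library, in replicate 1 by a narrow margin. Of the B-type CDKs, made around mitosis, Os08g0512600 was at 21.1, 32.9 and 20.7 CPM in WT, against 32.8, 50.6 and 0 CPM in the line. The CDKB1-1 entry Os01g0897000 overlapped too, at 15.25, 28.3 and 18.2 CPM and at 17.9, 29.6 and 0 CPM. A weak CDKB2-1 entry, Os05g0483801, had no value above 1.94 CPM. Of the 3 CDK inhibitors, Os09g0459900 was at 13.3, 8.46 and 17.4 CPM in WT, against 4.62, 7.88 and 0 CPM in the line, below WT in each library (log2 fold change -1.62 ± 1.40, and -1.05 ± 0.41 without replicate 3; edgeR's adjusted p = 0.849 and 0.431). The others lay differently. Os03g0137800 was at 8.2, 8.8 and 6.1 CPM in WT, against 10.5, 12.5 and 0 CPM in the line, above WT in replicates 1 and 2. Os10g0471700 overlapped, at 14.6, 17.1 and 22.75 CPM and at 19.1, 21.3 and 13.3 CPM.

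Kinesins, the largest role, were mixed: without replicate 3, 13 of 37 were higher (35.1%) and 1 lower (2.70%) at an unadjusted p under 0.05. The shares of all genes were 5.18% and 5.41%. In replicate 3, 14 were listed at 0 (37.8%, against 17.9% of all genes). In that library 32 were at their lowest of the 6 libraries (86.5%, against 42.3%), and the median log2(CPM + 1) was -2.81 relative to the WT mean.

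The kinesin Os12g0590500 on chromosome 12, with a transcript of 9.30 kb, was at 140.3, 179.7 and 84.2 CPM in WT, against 140.1, 209 and 0 CPM in the line. These are 3504, 5883 and 2073 reads in WT and 2671, 5852 and 0 reads in the line, at total counts of 20585288 or more in every library. WT alone spanned from 84.2 to 179.7 CPM, and replicate 1 of the line lay within that span and replicate 2 above it. Its log2 fold change was -0.21 ± 1.72 with all libraries and 0.37 ± 0.33 without replicate 3 (adjusted p = 0.985 and 0.749, edgeR).

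Os02g0742900, a kinesin-like gene chosen after its values were seen, was at 8.93, 11.0 and 8.41 CPM in WT, against 21.1, 31.5 and 0 CPM in the line, with ratios of 2.79 for the mean of replicates 1 and 2 to WT. Os03g0114000, chosen likewise, was at 23.9, 26.9 and 31.4 CPM and at 50.5, 66.3 and 0 CPM. Without replicate 3 their adjusted p-values were 0.148 and 0.174 in edgeR and 0.00167 and 0.00348 in DESeq2. With 6 libraries their log2 fold changes were 0.89 ± 1.54 and 0.51 ± 1.58 (adjusted p = 0.926 and 0.961, edgeR). For both, replicates 1 and 2 of the line stood clear of WT. A more abundant kinesin, Os03g0587200, had the same layout at 60.6, 99.9 and 76.4 CPM and at 111, 216 and 0 CPM, with a log2 fold change of 0.47 ± 1.72 with 6 libraries and 1.05 ± 0.32 without replicate 3 (edgeR's adjusted p = 0.966 and 0.319). The 13 kinesins that were higher at an unadjusted p also include Os02g0810200, which the annotation links to cell division, at 26.0, 49.3 and 32.5 CPM in WT, against 52.5, 62.8 and 2.25 CPM in the line.

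Os11g0648100, a gene with a kinesin motor domain, differed in the other direction, at 63.0, 56.9 and 56.4 CPM in WT, against 23.7, 32.5 and 10.2 CPM in the line. The WT mean was 58.7 ± 3.65 CPM and that of the line 22.1 ± 11.3 CPM (SD, n = 3), and every line library was below every WT library. The log2 fold change was -1.41 ± 0.43 with all libraries (adjusted p = 0.763, edgeR) and -1.06 ± 0.21 without replicate 3 (adjusted p = 0.181 in edgeR and 0.00125 in DESeq2).

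The 2 most abundant kinesins per length were not among the 13 that were higher. Os05g0154700, a kinesin-13 linked in rice to grain length (84.5 TPM), was at 142, 167 and 153 CPM in WT, against 141, 158 and 77.3 CPM in the line. The rice-specific kinesin Os02g0775400 (64.96 TPM) was at 206, 174 and 239 CPM and at 131, 189 and 18.4 CPM. Both overlapped between the genotypes, with replicate 3 lowest. The next in level, Os06g0217600 (59.0 TPM), was among the 13, at 31.9, 30.6 and 42.4 CPM in WT, against 51.1, 48.8 and 30.3 CPM in the line. Os06g0554700 was at 7.88, 7.88 and 11.9 CPM in WT, against 15.9, 7.92 and 20.1 CPM in the line, with replicate 3 highest.

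**Figure D4:**
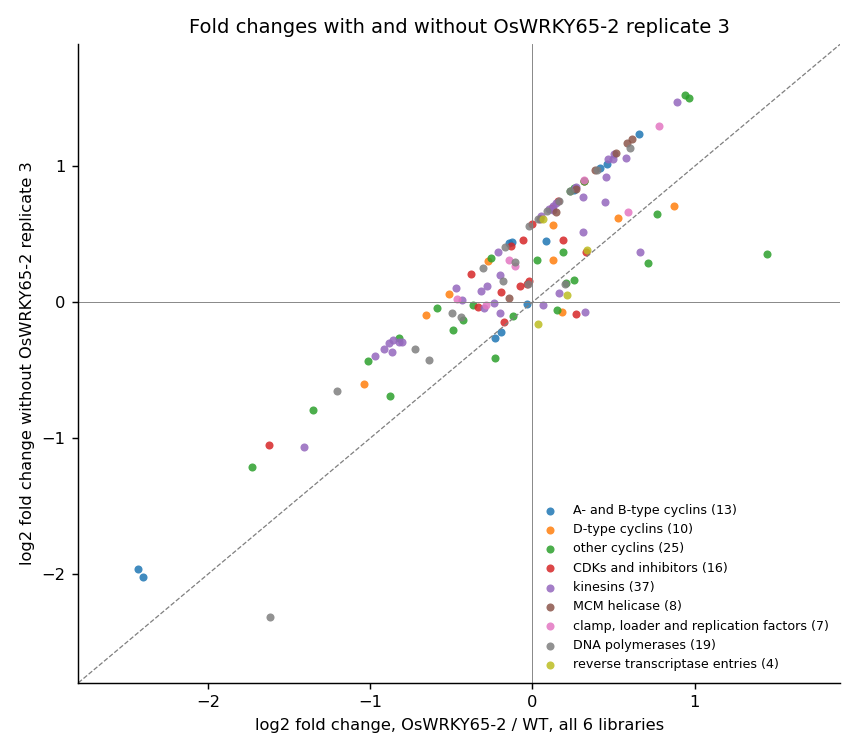
Each point is 1 of the 139 genes, with its log2 fold change (OsWRKY65-2 over WT, edgeR) from all 6 libraries on the horizontal axis and without OsWRKY65-2 replicate 3 on the vertical axis, coloured by role; the dashed line marks equal values. Most points lie above the line, the medians being 0.035 and 0.305, and the 2 fits share 5 libraries.

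Other cell cycle genes that the rule did not name were read in the same fits, in which 5.18% of all genes were higher and 5.41% lower at an unadjusted p under 0.05 without replicate 3. The lists were text patterns, and edgeR called 0 genes of any of them in either fit. Of 43 core histone genes, most of them made during replication, 24 were higher (55.8%) and 0 lower by that measure, with a median log2 fold change of 0.72 (0.29 with all libraries). Of 26 licensing and S phase genes 5 were higher (19.2%) and 0 lower, of 11 genes of the E2F and retinoblastoma pathway 2 (18.2%) and 0, and of 34 mitosis genes 10 (29.4%) and 4 (11.8%). The medians were 0.38, 0.46 and 0.39 without replicate 3 and -0.05, 0.14 and -0.04 with it. Entries that name tubulin, which also serves cells that do not divide, had 1 of 26 higher and 1 lower (3.85% each), near the shares of all genes. They include folding cofactors and other tubulin-related proteins, and the lower gene is a tubulin complex-related kinase (Os02g0590800). In replicate 3, 46.2% of the licensing list and 47.1% of the mitosis list were listed at 0, but 16.3% of the core histones, 18.2% of the E2F and retinoblastoma list and 3.85% of the tubulin entries, against 17.9% of all genes. The 2 genes of the endoreduplication list had no unadjusted p under 0.05.

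Examples chosen after their values were seen include the histone H3 gene Os04g0419600, at 13.5, 19.4 and 13.9 TPM in WT, against 27.7, 53.8 and 0.731 TPM in the line. An aurora kinase (Os01g0191800), which acts on chromosomes at mitosis, was at 28.2, 33.2 and 17.1 TPM and at 39.8, 78.9 and 0 TPM. In both, replicates 1 and 2 of the line were above WT and replicate 3 below it. All 4 mitosis genes that were lower encode MAP65 proteins, which cross-link microtubules, and all 4 were below WT in each line library. The MAP65 entries Os02g0126300, Os06g0308300 and Os06g0611000 were neither higher nor lower by that measure. Another MAP65 entry, Os05g0409400, was higher by the same measure, at 8.66, 9.82 and 9.62 TPM in WT, against 9.74, 19.6 and 0 TPM in the line. MAP65-1a (Os09g0450300) was at 123, 99.9 and 82.8 TPM in WT, against 25.4, 35.3 and 7.89 TPM in the line, with a log2 fold change of -1.86 with all libraries and -1.46 ± 0.22 without replicate 3 (adjusted p = 0.0958, edgeR).

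Markers of the shoot meristem and young leaf base were listed at 0 in unequal numbers across libraries. Of 21 such genes tested (KNOTTED1-like, YABBY, growth-regulating factor and LATERAL ORGAN BOUNDARIES entries), WT replicates 1 to 3 listed 3, 1 and 8 at 0, and the line's replicates listed 2, 1 and 12. On the log2(CPM + 1) scale and with the WT mean as 0, the 139 genes had medians of 0.04, 0.14 and -0.12 in WT, against 0.18, 0.28 and -1.62 in the line. Within each genotype, libraries with fewer markers at 0 had higher medians. The counts at 0 over all 23769 genes tested were 164, 716 and 1131 in WT, against 805, 593 and 4244 in the line. The order of the line's libraries was thus the same over all genes, and WT replicate 3 had the most zeros of WT there too. Many of the markers were at a few TPM. The growth-regulating factor gene Os03g0674700 was at 9.71, 18.6 and 0.125 TPM in WT, against 5.49, 13.0 and 0 TPM in the line, and the meristem maintenance gene Os03g0727000 at 0, 1.38 and 0 TPM and at 3.40, 3.04 and 0 TPM. Other genes of the list lay differently. The knotted-1 entry Os08g0292900 and the LATERAL ORGAN BOUNDARIES entry Os07g0589000 were highest in replicate 3 of the line, at 127.7 and 40.9 TPM, and 4 of the 21 were below WT in every line library. One of these 4, the knotted-1 type entry Os03g0673000, was at 3.65, 10.1 and 5.03 TPM in WT and listed at 0 in all line libraries. The summed level of the list did not follow the counts at 0, with 151 to 245 TPM in WT and 176 to 204 TPM in the line. Root markers (4 genes) summed to between 31.15 and 203 TPM in WT, against 37.4, 57.5 and 751 TPM in the line. Most of the last value came from Os12g0555000, a root-specific pathogenesis-related gene at 746 TPM there. The part of these markers in the results was not tested.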

How the data were processed

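Leaf polyA RNA was measured in 3 WT and 3 OsWRKY65-2 libraries. The submitters' processing notes name bcl2fastq (2.20.0), Trimmomatic, StringTie (2.1.3b) and HISAT2 (2.1.0), with IRGSP-1.0 as the build. Not given in the sources used here: how reads were counted, with which strand setting and on which annotation release. Thus overlapping, antisense or near-identical genes may share reads. The deposited table holds, per the file headers, whole estimated counts (Read_Count), FPKM and TPM for 37863 genes. Deposited FPKM, counts scaled to length and depth by the authors, gave only the transcript lengths they imply. Deposited TPM sum to 1000000 in each library and gave levels per length. Of the 18 value columns, the 9 of OsWRKY65-2 carry its name and replicate number. The other 9 carry a prefix that no label explains; they were read as WT, being all that remains for it, and each direction given depends on that. Os12g0116800 was taken as OsWRKY65 from general knowledge of its older locus name. No positions or sequences are used here.

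Counts were tested with edgeR 4.0.16 in R 4.3.3 over all genes, with genotype alone: a robust quasi-likelihood fit, TMM scaling, a filterByExpr minimum of 10, Benjamini-Hochberg adjustment and a threshold of 0.05. SE is the absolute log2 fold change (prior count 2) over the square root of F. The script was checked on simulated counts with the same dispersion for every gene and no library set apart. That check therefore does not cover a library such as OsWRKY65-2 replicate 3. Alternatives were DESeq2 1.42.0, limma 3.58.1 (voom, and trend on log2(TPM + 1) or log2(TPM + 0.1)), other factors and filters, a replicate block, and each library left out. Leaving out a second library beside OsWRKY65-2 replicate 3, and reading the rule literally, were chosen after seeing the data. Floors of 3 counts cover counting error only.

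The text rule matched 315 genes with the read minimum. Of these, 170 cyclin-like F-box entries, 25 of them with the words in the other order, and 6 entries with the letters inside another word, such as recycling, were left out. The members and the other lists were chosen with earlier results of these data known. In the lists, 12 of 243 matches were removed as accidental. Genes were named by rule: the kinesin Os12g0590500 and, in each role, the 2 with the highest mean TPM and the 2 with the smallest unadjusted p with all libraries. Others were chosen after their values were seen.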

Additional observations from a re-analysis of the deposited data

How the results depend on the processing

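Counts of genes called in the whole table (adjusted p under 0.05, higher and lower) were 0 and 0 by edgeR with all 6 libraries. With no filter they were 2 and 0, 181 and 105 with DESeq2, and 2 and 0 with limma-trend on either TPM scale. Leaving out each library in turn gave 0 to 13 higher and 0 to 6 lower, the highest without OsWRKY65-2 replicate 3. Without that library DESeq2 called 274 and 435, limma-voom 5 and 3, and the replicate block 7 and 1. Among the 139 members, 0 and 0 were called in each of these fits, except 6 and 1 by DESeq2 without OsWRKY65-2 replicate 3.

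Members at an unadjusted p under 0.05 numbered 2 higher and 2 lower. Limma-trend gave 0 and 7 on log2(TPM + 1) and 0 and 5 on log2(TPM + 0.1), limma-voom 3 and 6, and the replicate block 0 and 2. With each library left out the counts were 0 to 32 higher and 2 to 7 lower. Without OsWRKY65-2 replicate 3, DESeq2 gave 31 and 4, limma-voom 35 and 3, and the replicate block 24 and 3. With a second library left out as well, between 6 and 37 were higher and between 3 and 15 lower. The median log2 fold change of members ran from -0.52 to 0.305 when 1 library was left out, and was -0.936 on log2(TPM + 0.1), -0.52 with the block and -0.021 with the rule read literally. The cause of these shifts was not tested.

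Of 29 genes named by rule, 18 kept the sign of their log2 fold change in every fit and 11 did not. On limma-voom, log2(TPM + 1), log2(TPM + 0.1) and the replicate block, in this order, the B1-5 cyclin Os05g0493500 was at -0.72, -0.87, -1.09 and -0.43, Os02g0797400 (MCM) at -1.76, -0.79, -1.85 and -0.48, MCM3 (Os05g0476200) at -2.28, -1.20, -2.28 and -0.73, and MCM2 (Os11g0484300) at -0.42, -0.62, -0.69 and -0.37. On the TPM scales alone, PCNA (Os02g0805200) was at -0.08 and -0.10, Os03g0109700 at -0.12 and -0.13, and Os09g0520100 at -0.04 and -0.04. Without OsWRKY65-2 replicate 3, by DESeq2, limma-voom and the replicate block, Os01g0367700 was at 0.07, 0.08 and 0.08, Os01g0958000 at 0.12, 0.13 and 0.13, Os05g0173700 at 0.02, 0.09 and 0.29, and Os12g0590500 at 0.37, 0.41 and 0.11.

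With each library left out in edgeR, ranges that crossed 0 were -0.39 to 0.08 for Os01g0367700, -0.23 to 0.13 for Os01g0958000, -0.12 to 1.20 for Os02g0797400, -0.02 to 1.30 for PCNA, -0.10 to 0.31 for Os03g0109700 and -0.32 to 0.11 for Os05g0173700. They were -0.52 to 0.97 for MCM3, -0.56 to 0.99 for Os05g0493500, -0.43 to 0.66 for MCM2 and -0.99 to 0.37 for Os12g0590500.

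Deviations of same-numbered WT and OsWRKY65-2 libraries from the genotype means correlated at r = 0.05, -0.06 and -0.01 across genes. Not every sample correlated best with its own number. The labels give no pairing. These values cannot exclude one, with 3 libraries per genotype and OsWRKY65-2 replicate 3 part of the line's mean. The replicate block is given only for completeness. No group has more than 3 libraries, so no check for single extreme samples within a group was made. Depth limits weak genes: 3 counts are 0.0917 to 0.160 CPM.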
